A study of Mus musculus with 32 samples.

Results

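The genes described here are the proteasome genes that carry the Psm prefix in mouse nomenclature. They were taken by symbol from the deposited count table, as every gene named Psma, Psmb, Psmc, Psmd, Psme, Psmf or Psmg followed by a digit, with pseudogene symbols dropped. The pattern matched 50 symbols, 1 of them a pseudogene, which left 49 of the 17757 genes of the table. All 49 averaged 50 counts or more over the 32 libraries, and the lowest single count in any library was also 50. The pattern used symbols alone and no measured value. The table held 31 subunits of the 20S and 19S particles, 3 inducible catalytic subunits, 7 assembly chaperones and 6 activators or regulators. The other 2 matches, Psmc3ip, a cofactor of meiotic recombination, and Psme3ip1, a partner of the activator subunit Psme3, share the prefix and are not subunits. Both are counted among the 49, which are called proteasome genes below for brevity. The thymus and testis subunits Psmb11 and Psma8 are not analysed here.

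The libraries came from 4T1 cells, a mouse mammary carcinoma line labelled as triple-negative breast cancer, grown as spheroids for 5 days in a lung-like medium. Lysates were separated by ultracentrifugation, and mRNA was sequenced from a polysomal fraction, carrying more than 3 ribosomes, and a sub-polysomal fraction, carrying fewer. Both fractions were taken from the same pellet, and 4 independent pellets were made for each of 4 conditions, giving 32 libraries of 12870563 to 25639437 counts with a median of 18168765. In 3 conditions the medium was supplemented with 700 µM aspartate. These were cells with a non-targeting shRNA (ASP shSCR), with an shRNA against Grin2d (ASP shGRIN2D), which encodes an NMDA receptor subunit, and with an shRNA against Dhps (ASP shDHPS), which encodes deoxyhypusine synthase, the first enzyme of eIF5A hypusination. The remaining condition, NoASP shSCR, had the non-targeting shRNA and no added aspartate. Every group, controls included, therefore carried a lentiviral shRNA vector and puromycin selection, and the silenced cells were selected populations of a single cell line, so the 4 pellets measure the spread between spheroid cultures of that line.

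The proteasome degrades proteins marked with ubiquitin. Its 20S core is a barrel of stacked rings, with outer alpha rings that gate the entrance and inner beta rings that hold the proteolytic sites, and the 19S cap that sits on the barrel recognises ubiquitin, removes it and unfolds the substrate with a ring of ATPases. Subunits are made from separate genes and are put together with the help of chaperones, and interferon replaces the catalytic beta subunits by inducible ones that favour peptides for class I antigen presentation.

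The quantity compared below is the log2 ratio of a gene's normalised count in the polysomal library to that in the sub-polysomal library of the same pellet. A ratio of 0 means that a gene took the same normalised share of both libraries. It is a value relative to all genes, not the portion of a gene's mRNA that was on polysomes. The sequence around the start codon is shown for the 3 genes with the highest and the 3 with the lowest ratio in ASP shSCR, because the start codon is where the ribosome begins. The windows hold 12 bases before the start codon and 15 bases from the codon's end, with the ATG in capitals. They were read from the spliced sequence of 1 annotated transcript per gene (GRCm38).
Psmc2: tgcagtccccagATGtccagggaaccggcg
Psma2: ttccgggtaaagATGgcagagcgcggttac
Psmc5: gagagagggaagATGgcgcttgatgggcca
Psmc3ip: gcgggaaaggccATGagtaaaagccgggcc
Psme3: cccggcctggccATGgcctcgttgctgaag
Psmg4: gtggctggcgggATGgaggagtctcgggcc
The Psmc2 gene (ENSMUSG00000028932) lies at chr5:21785283-21803787 on the plus strand with its start codon at 21786689 to 21786691. Psma2 (ENSMUSG00000015671) lies at chr13:14613240-14674236 on the plus strand, with the codon at 14613275 to 14613277. Psmc5 (ENSMUSG00000020708) lies at chr11:106256154-106263120 on the plus strand, with the codon at 106256191 to 106256193. Psmc3ip (ENSMUSG00000019303) lies at chr11:101091823-101095436 on the minus strand, with the codon at 101095374 to 101095376. Psme3 (ENSMUSG00000078652) lies at chr11:101316213-101323537 on the plus strand, with the codon at 101316447 to 101316449, and Psmg4 (ENSMUSG00000071451) at chr13:34162964-34178173 on the plus strand, with the codon at 34163076 to 34163078. The letters favoured around a mammalian start codon are a purine 3 bases before the ATG and a G just after it. Psma2, Psmc5, Psme3 and Psmg4 have both letters and Psmc3ip has 1 of them, while Psmc2, which had the highest ratio of all 49, has neither in its window. The windows come from spliced transcripts and hold no intron, and other transcripts of a gene were not read. Among all 49 genes 26 (53.1%) had both letters, against 47.1% of the 10229 genes that averaged 50 counts or more and had an annotated start codon with its context.

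The silenced genes were looked at first. Dhps, on chromosome 8, stood at 9.98, 10.8, 10.2 and 8.96 CPM (counts normalised to library size) in the sub-polysomal fraction of the Dhps-silenced pellets and at 42.9, 33.2, 43.3 and 41.3 CPM in that of ASP shSCR. It was therefore lower in every silenced pellet, by a fitted log2 difference of -2.01 ± 0.16 (SE; adjusted p = 1.11e-08, edgeR quasi-likelihood test) and of -1.64 ± 0.23 between the polysomal libraries (adjusted p = 0.0167). The polysomal call for Dhps did not pass without ASP shSCR replicate 2 (-1.48), ASP shDHPS replicate 1 (-1.59) or ASP shDHPS replicate 3 (-1.63), or with those 2 conditions fitted alone (-1.65), at log2 differences close to that of the full fit. Grin2d, on chromosome 7, had log2 differences of -0.88 (adjusted p = 0.232) and -1.14 (adjusted p = 0.263) in ASP shGRIN2D, and neither passed the test. The labelled epithelial cell type was checked by 6 markers, all of them abundant, with Epcam at 3277 to 22297 counts per library, Cdh1 at 1606 to 11017 and Krt8, the highest, at 11268 to 53315. The leukocyte marker Ptprc did not exceed 21 counts and the endothelial marker Pecam1 did not exceed 12, and Cd3e, Adgre1, Itgam, Cdh5 and Kdr were not in the filtered table. Of the fibroblast markers, Thy1 held 1406 to 5297 counts and Pdgfra 143 to 621, while Pdgfrb, Dcn and Lum were not in the table.

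The polysomal library of ASP shSCR replicate 1 stood apart. On a scale that runs from 0 at the average sub-polysomal profile of the 11046 genes compared to 1 at the average polysomal one, it was placed at 0.372, whereas the range was 0.777 to 1.27 for the 15 remaining polysomal libraries and -0.114 to 0.162 for the sub-polysomal ones. This pellet belongs to the condition against which every other one was compared, so the main results that rest on it are given with and without it.

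Most proteasome mRNAs took a larger share of the polysomal than of the sub-polysomal libraries in all 4 conditions. In ASP shSCR 35 of the 49 were called higher in the polysomal fraction and 2 lower, at an adjusted p under 0.05 by edgeR's quasi-likelihood test, where 20.8% of all genes tested were called higher and 18.9% lower (32.3% and 27.1% among genes with a mean of at least 50 counts, as all 49 had). NoASP shSCR had 41 higher and 3 lower, against 23.7% and 20.6% of all genes. ASP shGRIN2D had 42 higher and 2 lower, against 23% and 20.4%, and ASP shDHPS 43 higher and 3 lower, against 21.8% and 21.3%. The median log2 ratio over the 49 was 1.08 in ASP shSCR, 1.19 in NoASP shSCR, 1.26 in ASP shGRIN2D and 1.32 in ASP shDHPS, and that of all genes with a mean of at least 50 counts was 0.12, 0.19, 0.16 and 0.08. Without replicate 1, ASP shSCR had 40 higher and 2 lower, against 20.7% and 19.7% of all genes, and a median of 1.23.

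Of the 49 genes 35 were called higher in every condition and 8 in some of them. Psme3 and Psmg4 were called lower in every condition, Psmc3ip in some, and Psmd8, Psme2 and Psme2b in none and in neither direction. For 28 genes all 16 polysomal libraries lay above all 16 sub-polysomal libraries, without overlap, which was so for 11.5% of genes with a mean of at least 50 counts. The reverse held for 1 gene, Psmg4, and for 6.70% of such genes. The ratio was positive in all 16 pellets for 31 genes (23.4% of such genes).

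**Figure D1:**
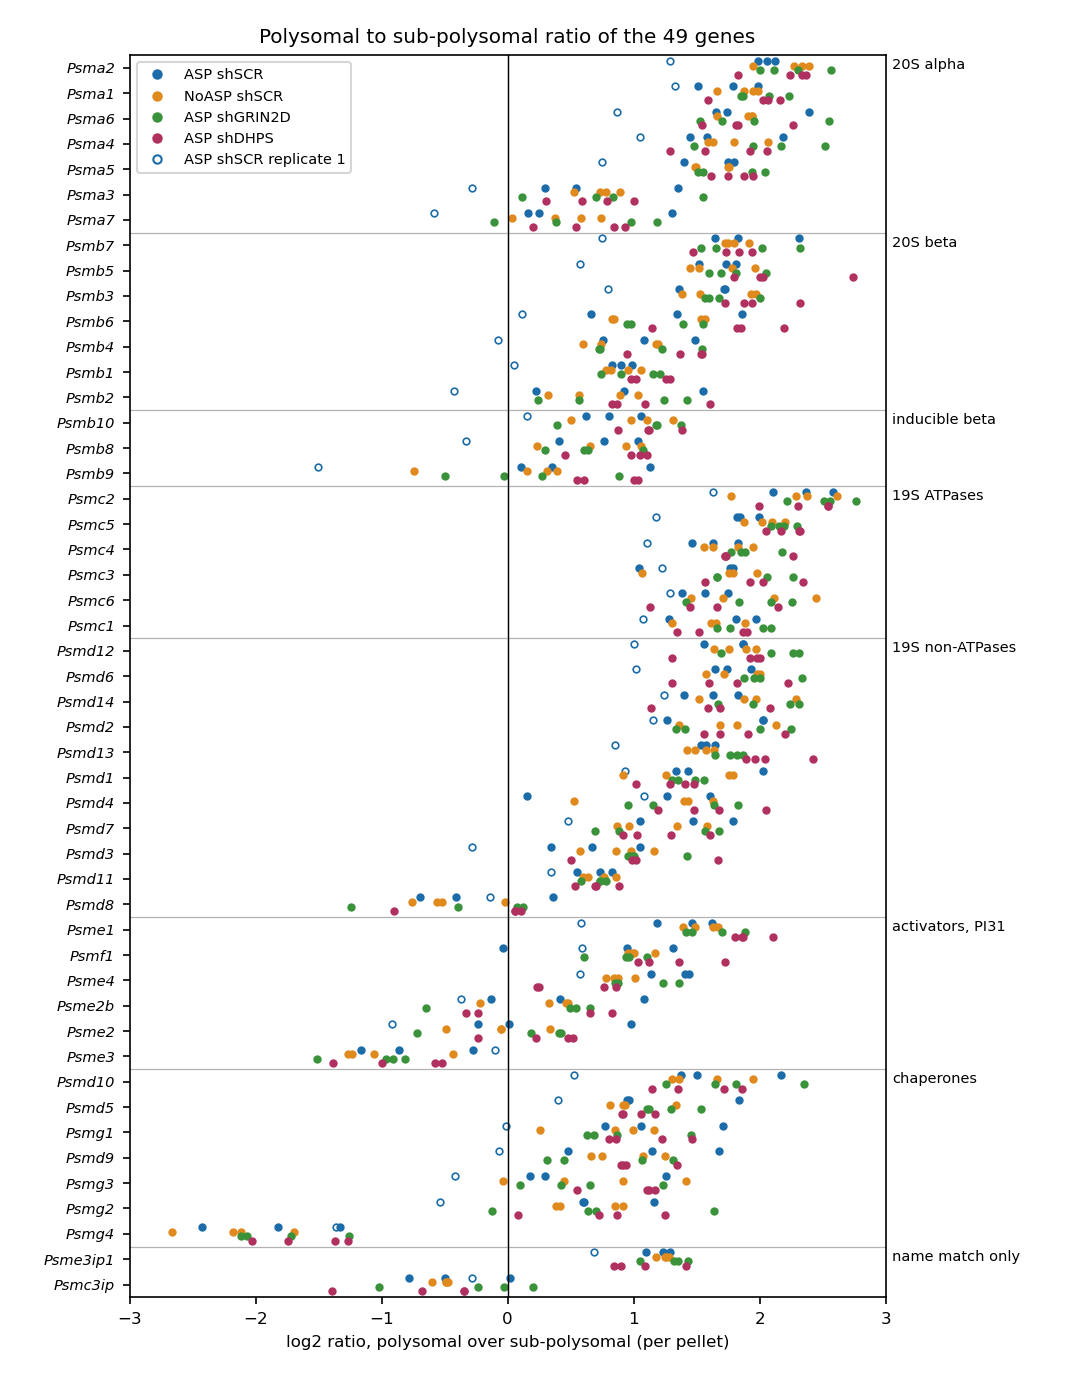
Log2 ratio of polysomal to sub-polysomal normalised counts (x axis) for each of the 49 genes (rows, grouped by role), with 1 point for each of the 16 pellets, coloured by condition and with ASP shSCR replicate 1 as an open circle. Most genes lie to the right of 0 in every pellet, Psmg4 lies to the left in all 16, and the open circle is the lowest point for 37 genes. Of all genes with a mean of at least 50 counts, 19.8% were lowest in that pellet.

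The alpha ring of the 20S core, which gates the entrance, had median log2 ratios of 1.57, 1.77, 1.93 and 1.80 across the conditions, in the order used from here on, with ASP shSCR first, NoASP shSCR next, then ASP shGRIN2D and last ASP shDHPS. Of its 7 subunits 5, 6, 7 and 7 were called higher. Psma2, an alpha ring subunit, had log2 ratios of 1.29, 2.12, 2.06 and 1.99 in the pellets of ASP shSCR, of 2.34, 1.95, 2.27 and 2.39 in NoASP shSCR, of 2.11, 2.30, 2.57 and 2.00 in ASP shGRIN2D and of 2.34, 2.25, 1.83 and 2.37 in ASP shDHPS. Replicate 1 of ASP shSCR was the lowest of the 16 for Psma2, and the conditions otherwise overlapped. Fitted values for Psma2 were 1.87, 2.24, 2.25 and 2.20. Psma6 had 1.67, 1.86, 1.93 and 1.86 and Psma1 1.65, 1.87, 2.01 and 1.96. Psma7, whose product lies in the same ring, was at the low end, with 0.61 and 0.63 in ASP shGRIN2D and ASP shDHPS, where it was called higher, and 0.28 and 0.43 in the scramble conditions, where it was not. The ASP shGRIN2D call of Psma7 did not pass without replicate 2, 3 or 4 of that condition. Nor did it pass with DESeq2's size factors or where every library had to hold 10 counts. Its ASP shDHPS call did not pass without replicate 2, 3 or 4 of that condition. In NoASP shSCR Psma7 was called higher with TMM within each fraction and with that condition fitted alone. Its ring neighbour Psma3 was called higher at 0.73, 0.80 and 0.67 in the conditions other than ASP shSCR, where it had 0.48 with all pellets and 0.67 without replicate 1, the latter past the test (adjusted p = 0.0179, edgeR). The ASP shGRIN2D call of Psma3 did not pass without replicate 3 of that condition, nor the ASP shDHPS call without replicate 2 or 4.

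The beta ring holds the proteolytic sites, and of its 7 constitutive subunits 6, 7, 7 and 7 were called higher, with medians of 1.00, 1.19, 1.22 and 1.75. Psmb5, the chymotrypsin-like subunit, had log2 ratios of 0.58, 1.73, 1.81 and 1.52 in ASP shSCR, of 1.97, 1.78, 1.44 and 1.52 in NoASP shSCR, of 1.81, 2.05, 1.60 and 1.69 in ASP shGRIN2D and of 2.74, 2.03, 2.01 and 1.80 in ASP shDHPS. Psmb6, the caspase-like subunit, had 0.11, 1.86, 1.34 and 0.66 in ASP shSCR, 1.57, 1.53, 0.84 and 0.83 in NoASP shSCR, 0.95, 1.55, 1.40 and 0.98 in ASP shGRIN2D and 2.20, 1.85, 1.82 and 1.15 in ASP shDHPS. For both, the lowest of the 16 pellets was ASP shSCR replicate 1 and the highest ASP shDHPS replicate 1, and the remaining pellets of these conditions overlapped. Psmb7, the trypsin-like subunit, had fitted values of 1.64, 1.80, 1.88 and 1.75. All 3 were called higher in every condition.

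The inducible counterparts had lower fitted ratios than the constitutive subunits they replace in every condition, a difference that was not tested, with medians of 0.47, 0.73, 0.65 and 0.90. Psmb10, which replaces Psmb7, was called higher in every condition at 0.66, 0.98, 1.04 and 1.13, although without replicate 3 of ASP shSCR its value there was 0.53 (adjusted p = 0.0601, edgeR). Psmb8, which replaces Psmb5, had 0.47, 0.73, 0.65 and 0.90 and was called in all but ASP shSCR (adjusted p = 0.0629), where it passed without replicate 1 at 0.67 (adjusted p = 0.00745), with TMM within each fraction at 0.67 (adjusted p = 0.00586) and under filterByExpr at 0.49 (adjusted p = 0.0411). Its call in ASP shGRIN2D did not pass without replicate 2 of that condition.

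Psmb9, which replaces Psmb6, was the least abundant of the 49 per length. Its level in the polysomal libraries was 2.82, 16.01, 6.21 and 6.45 CPM in ASP shSCR, 7.76, 9.77, 5.80 and 3.04 in NoASP shSCR, 5.82, 13.1, 6.62 and 7.93 in ASP shGRIN2D and 8.29, 9.55, 10.6 and 7.71 in ASP shDHPS. Psmb9 was called higher in polysomes in ASP shDHPS alone, at 0.81 (adjusted p = 0.0281, edgeR), with log2 ratios of 1.00, 0.61, 1.04 and 0.55 in its pellets. That call did not pass without ASP shDHPS replicate 1 (0.74, adjusted p = 0.0971) or replicate 3 (0.73, adjusted p = 0.107). In ASP shSCR the pellets ran from -1.50 in replicate 1 to 1.13 in replicate 2, with a fitted value of 0.06, or 0.48 without replicate 1. The difference in ratio between ASP shDHPS and ASP shSCR was 0.75 with all pellets and 0.30 without replicate 1 and did not pass the test in either fit.

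The 19S ATPases, the ring that unfolds substrates, were the most uniform role group in their calls. All 6 were called higher in every condition, with medians of 1.52, 1.84, 1.92 and 1.92. Psmc2 had the highest ratio of the 49 in each condition. Its polysomal levels were 196, 210.5, 284 and 350.1 CPM in ASP shSCR and its sub-polysomal levels in the same pellets 63.1, 48.9, 55.0 and 58.2 CPM. In ASP shDHPS the polysomal levels of Psmc2 were 334, 292, 306 and 452 CPM and the sub-polysomal ones 57.3, 58.9, 76.5 and 77.5 CPM. No polysomal library of any condition came below 196 CPM and no sub-polysomal one rose above 79.7 CPM. The fitted log2 ratios of Psmc2 were 2.17 ± 0.19 (SE, n = 4 pellets; adjusted p = 1.83e-08, edgeR), 2.27, 2.52 and 2.35. Psmc5 had 1.71, 2.05, 2.18 and 2.21, and Psmc6, another ATPase of the ring, 1.50, 1.93, 1.90 and 1.60.

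Of the 11 other 19S subunits 9, 10, 10 and 10 were called higher, with medians of 1.40, 1.43, 1.43 and 1.60. Psmd14, the deubiquitinase that removes ubiquitin chains before the substrate enters the core, had 1.53, 1.91, 2.05 and 1.63. Psmd4, a ubiquitin receptor, had 1.03, 1.25, 1.40 and 1.60, and its pellets varied widely, from 0.15 in ASP shSCR replicate 2 to 2.05 in ASP shDHPS replicate 1. The scaffold subunits Psmd12 (1.58, 1.82, 2.09 and 1.81), Psmd6 (1.59, 1.82, 2.05 and 1.74) and Psmd13 (1.40, 1.53, 1.78 and 2.08) were called higher throughout. The exception among the lid subunits was Psmd8, with -0.22, -0.47, -0.35 and -0.16, no call in any condition and pellets from -1.24 to 0.36. Psmd8 was called lower in NoASP shSCR with DESeq2's size factors, by DESeq2's Wald test, where every library had to hold 10 counts, with that condition fitted alone and in the fit that blocked on replicate number.

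The activators did not share 1 pattern. Psme1, a subunit of the interferon-inducible 11S activator, had 1.22, 1.55, 1.62 and 1.91 and was called higher in every condition. Psme2, which assembles with Psme1 into the same ring, had -0.04, -0.06, 0.08 and 0.25 with no call, as did Psme2b, a near copy of it, with 0.25, 0.27, 0.26 and 0.23. Reads of these 2 genes may have been shared between them, so their values are uncertain.

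Psme3, which forms the nuclear 11S activator, was called lower in polysomes in every condition, with fitted values of -0.60, -0.999, -1.05 and -0.87. Its pellets had log2 ratios of -0.10, -0.28, -0.86 and -1.16 in ASP shSCR, -1.06, -0.43, -1.26 and -1.23 in NoASP shSCR, -1.51, -0.96, -0.81 and -0.91 in ASP shGRIN2D and -1.38, -0.57, -0.52 and -0.99 in ASP shDHPS. All 16 were negative. The call for Psme3 in ASP shSCR (adjusted p = 0.0197, edgeR) did not pass without replicate 3 (-0.51) or replicate 4 (-0.41), with TMM normalisation within each fraction (-0.41) or with that condition fitted alone (-0.62), and the value without replicate 1 was -0.83.

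Psme4, the large single-chain activator PA200, was called higher in all 4 conditions, at 1.14, 0.88, 1.08 and 0.53. Its pellets had log2 ratios of 0.58, 1.44, 1.14 and 1.41 in ASP shSCR and of 0.23, 0.86, 0.25 and 0.76 in ASP shDHPS, and the call for Psme4 in ASP shDHPS did not pass without replicate 2 or replicate 4 of that condition. Psmf1, the PI31 regulator, was called higher at 0.71, 1.03, 0.91 and 1.32, with the ASP shSCR value at 0.51 and not past the test without replicate 3.

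Of the 7 assembly chaperones 4, 6, 6 and 6 were called higher and Psmg4 was called lower in each condition. Psmg1, which helps to build the alpha ring together with Psmg2, had 0.88, 0.82, 0.91 and 1.09. Psmg4, which works as a pair with Psmg3, went the other way, with fitted values of -1.74, -2.17, -1.80 and -1.61. Its polysomal levels were 13.3, 14.4, 6.68 and 9.02 CPM in ASP shSCR and its sub-polysomal levels 34.4, 36.4, 36.4 and 32.2 CPM. Over all conditions Psmg4 stood at 3.67 to 14.4 CPM in polysomal and 23.4 to 39.7 CPM in sub-polysomal libraries, with no overlap. Its partner Psmg3 had 0.32, 0.69, 0.60 and 0.99 and was called higher in all but ASP shSCR. The NoASP shSCR call of Psmg3 did not pass without replicate 1 or 2 of that condition. The ASP shGRIN2D call did not pass without replicate 2, 3 or 4 of that condition. Nor did the latter pass with DESeq2's size factors, by DESeq2's Wald test or where every library had to hold 10 counts. Of the genes that share only the prefix, Psme3ip1 was called higher throughout (1.08, 1.24, 1.29 and 1.06), while Psmc3ip was called lower in NoASP shSCR (-0.52) and ASP shDHPS (-0.69) and not in ASP shSCR (-0.39) or ASP shGRIN2D (-0.27). The NoASP shSCR call of Psmc3ip did not pass without any 1 of the 4 pellets, nor the ASP shDHPS call without replicate 1. The NoASP shSCR call also did not pass with TMM within each fraction or without the pellet pairing. In ASP shSCR Psmc3ip was called lower by DESeq2's Wald test (-0.47, adjusted p = 0.0496) and without replicate 2 (-0.57, adjusted p = 0.0459, edgeR).

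Ribosomal protein genes, which also encode subunits of an abundant complex, gave a measure of how the proteasome genes compare. The median log2 ratio of 80 cytosolic ribosomal protein genes was -1.21, -1.13, -1.06 and -0.68, and that of 78 mitochondrial ones 0.04, 0.00, 0.13 and 0.38. Pellet by pellet, the proteasome median was 0.58, 1.40, 1.31 and 1.10 in ASP shSCR (mean 1.10 ± 0.37, SD, n = 4), 1.34, 1.18, 0.98 and 1.11 in NoASP shSCR (1.15 ± 0.151), 1.32, 1.35, 1.48 and 1.19 in ASP shGRIN2D (1.34 ± 0.121) and 1.48, 1.45, 1.29 and 1.15 in ASP shDHPS (1.34 ± 0.153). The cytosolic ribosomal protein median ran from -1.47 to -0.24 over the 16 pellets and the mitochondrial one from -0.58 to 0.68, so that the proteasome median was above both families in every pellet. Replicate 1 of ASP shSCR was the lowest of the 16 for the proteasome median, and without it the ASP shSCR mean was 1.27 ± 0.157, inside the range of the other conditions.

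**Figure D2:**
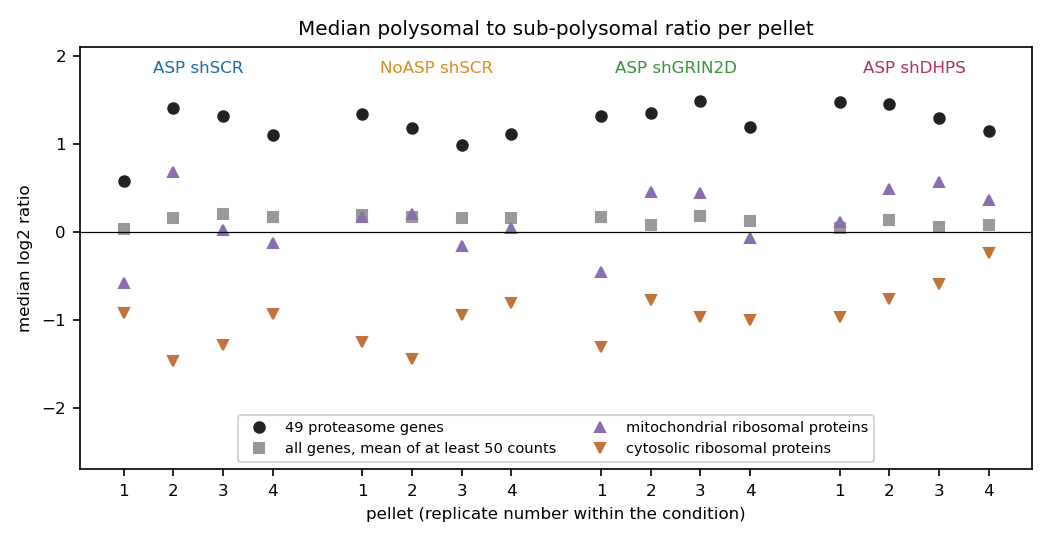
Median log2 ratio of polysomal to sub-polysomal normalised counts (y axis) in each of the 16 pellets, by condition (x axis), for the 49 proteasome genes, the mitochondrial and cytosolic ribosomal protein genes and all genes that averaged 50 counts or more. Proteasome medians run from 0.58 in ASP shSCR replicate 1 to 1.48 and cytosolic ribosomal protein medians from -1.47 to -0.24.

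Differences in ratio against ASP shSCR asked whether aspartate, Grin2d or Dhps changed the distribution of these mRNAs. No proteasome gene was called in any of the 3 differences by edgeR's quasi-likelihood test, where 0, 0 and 0.208% of all genes were called, those of ASP shDHPS all lower. Median differences were 0.18 in NoASP shSCR, 0.30 in ASP shGRIN2D and 0.23 in ASP shDHPS. Of the 49 genes 38, 43 and 42 were positive. Medians of all genes were 0.016, 0.013 and -0.013, or 0.005, 0.019 and 0.027 without ASP shSCR replicate 1. The 3 comparisons share the ASP shSCR pellets. Without replicate 1 the medians were -0.01, 0.12 and 0.10, with 23, 34 and 34 positive, and again no proteasome gene was called, where 0.00563% of all genes were called higher and 0.152% lower in ASP shDHPS and none in the others.

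At an unadjusted p under 0.05 the counts were 0 in NoASP shSCR, 1 in ASP shGRIN2D, Psmd3 at 0.64, and 8 in ASP shDHPS. Of all genes 0.918%, 1.41% and 4.93% were higher and 1.01%, 1.81% and 8.68% lower at that limit (7.32% and 12.8% in ASP shDHPS among genes with a mean of at least 50 counts). The 7 that were positive in ASP shDHPS were Psmb6 (0.76), Psmb5 (0.73), Psme1 (0.70), Psmd13 (0.68), Psmf1 (0.61), Psmb3 (0.56) and Psmc5 (0.50), and the negative one was Psme4 (-0.62). Without ASP shSCR replicate 1, 4 of the 8 remained under that limit, namely Psme4 at -0.77 (adjusted p = 0.135), Psmd13 at 0.53 (adjusted p = 0.282), Psme1 at 0.53 (adjusted p = 0.303) and Psmf1 at 0.60 (adjusted p = 0.330), while Psmb5 and Psmb6 had 0.49 and 0.50. DESeq2's Wald test called 0 genes in NoASP shSCR and ASP shGRIN2D and 3 in ASP shDHPS, Psmc5 (0.55, adjusted p = 0.0398), Psmd13 (0.73, adjusted p = 0.0104) and Psme1 (0.74, adjusted p = 0.0127), where that test called 1.86% higher and 3.72% lower of the 11216 genes to which it gave an adjusted p.

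Pellet values are given for these 3 genes. Psmc5 had log2 ratios of 1.18, 1.82, 1.996 and 1.84 in ASP shSCR and of 2.32, 2.17, 2.05 and 2.31 in ASP shDHPS, with replicate 1 the lowest of the controls. Psmd13, a 19S lid subunit, had log2 ratios of 0.85, 1.53, 1.64 and 1.57 in ASP shSCR and of 2.42, 1.89, 2.04 and 1.97 in ASP shDHPS, with replicate 1 again the lowest control. Psme1 had 0.59, 1.47, 1.62 and 1.18 in ASP shSCR and 1.87, 2.11, 1.86 and 1.80 in ASP shDHPS. For all 3 the silenced pellets lay above the controls without overlap, a description only, since they were picked for differing. The share of all genes separated in this way was not counted. By role, the median difference in ASP shDHPS was 0.53 in the constitutive beta subunits, 0.31 in the alpha ring, 0.26 in the ATPases and 0.15 in the other 19S subunits, and 0.27, 0.10, 0.16 and 0.08 without ASP shSCR replicate 1. In the inducible subunits it was 0.46, or 0.30 without that pellet. The medians of the assembly chaperones (0.21) and of the activators and Psmf1 (0.14) turned to -0.04 and -0.01 without it, and that of the 2 genes sharing only the prefix was -0.16 and -0.17. Over the cytosolic and mitochondrial ribosomal protein genes it was 0.55 and 0.31, or 0.63 and 0.20 without that pellet. At an unadjusted p under 0.05, 34 and 54 of the 80 cytosolic ones were positive in the fits with and without that pellet. Of the 78 mitochondrial ones 11 and 6 were positive at that limit, and of all 17757 genes 875 and 943. The part of that pellet in the proteasome values was not tested.

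**Figure D3:**
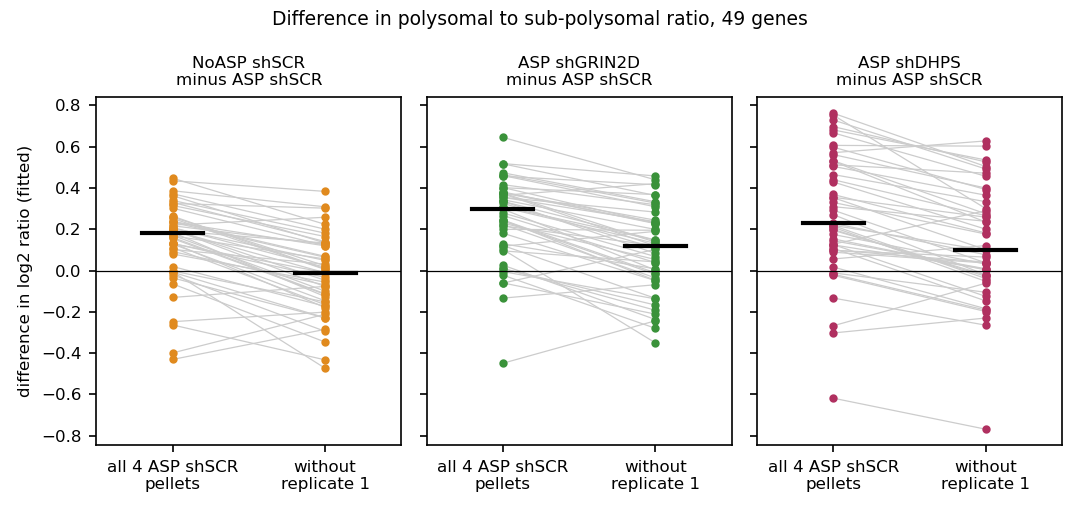
Fitted difference in log2 ratio against ASP shSCR (y axis) for each of the 49 genes in the 3 other conditions, with all 4 ASP shSCR pellets and without replicate 1, bars marking medians. Medians of 0.18, 0.30 and 0.23 with all pellets become -0.01, 0.12 and 0.10 without replicate 1.

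Levels within each fraction were compared as well, since a ratio can move through either library. No proteasome gene was called in any of the 6 level comparisons, by edgeR's quasi-likelihood test or by DESeq2's Wald test. Among all genes the sub-polysomal level was called higher in 0, 0.107% and 0.439% and lower in 0, 0.208% and 0.974% for NoASP shSCR, ASP shGRIN2D and ASP shDHPS. The polysomal level was called higher in 0, 0.0169% and 0.0113% and lower in 0, 0 and 0.158%. Median log2 differences of the 49 in the sub-polysomal fraction were 0.01, -0.05 and 0.06, with 2, 1 and 2 genes at an unadjusted p under 0.05. In the polysomal fraction they were 0.12, 0.13 and 0.25, with 5, 1 and 10 such genes. Of all genes at that limit, the sub-polysomal level was higher in 2.43%, 5.24% and 8.2% and lower in 2.47%, 5.77% and 7.75%, and the polysomal level higher in 0.879%, 2.02% and 4.34% and lower in 6.87%, 7.03% and 12%. The 10 in ASP shDHPS were all positive and included Psmd3 (0.72), Psmb6 (0.59), Psmb3 (0.59), Psmc5 (0.55) and Psmc4 (0.52), the lowest adjusted p being 0.136. Without ASP shSCR replicate 1 the polysomal medians were 0.09, 0.08 and 0.19, with 0, 0 and 5 genes at an unadjusted p under 0.05. In cultures of this kind, less RNA of a gene per cell and fewer cells that express it cannot be told apart.

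Summed over the 49 genes, the polysomal level was 6356, 8945, 9208 and 9769 CPM in ASP shSCR (mean 8570 ± 1515, SD, n = 4), 9723, 8780, 10626 and 10630 CPM in NoASP shSCR (9940 ± 883), 9362, 11208, 9478 and 10051 CPM in ASP shGRIN2D (10025 ± 844) and 10941, 10413, 10571 and 11981 CPM in ASP shDHPS (10977 ± 705). The ASP shDHPS libraries lay above all 4 ASP shSCR libraries, and the other conditions overlapped with the controls. The sub-polysomal sum was 4240 ± 537, 4335 ± 520, 4146 ± 493 and 4369 ± 288 CPM, and these groups overlapped.

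**Figure D4:**
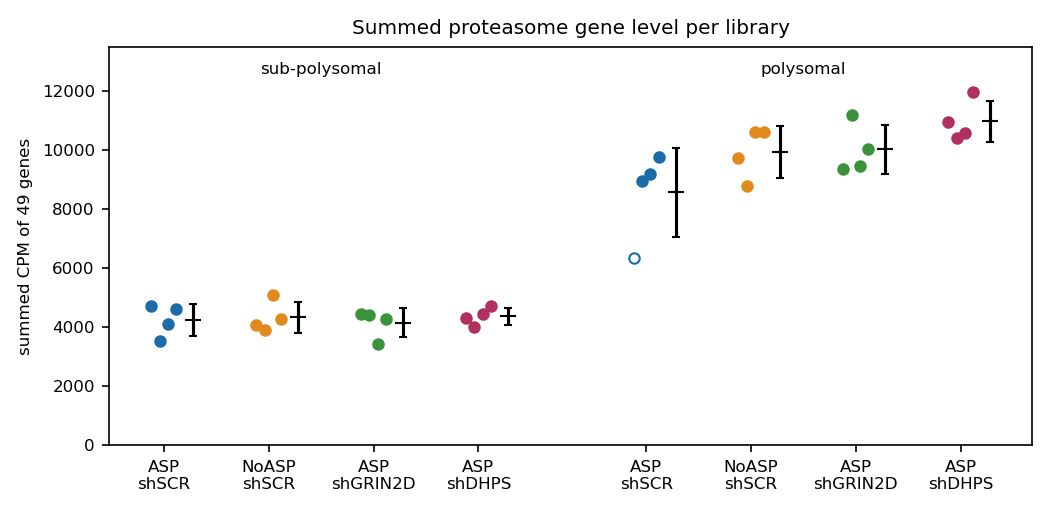
Summed level of the 49 proteasome genes in CPM (y axis, from 0) in each library, by condition and fraction (x axis), with the mean and SD of 4 libraries. Polysomal sums run from 6356 CPM in ASP shSCR replicate 1 to 11981 CPM in ASP shDHPS, and sub-polysomal sums from 3415 to 5084 CPM.

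Per kilobase of annotated transcript, which makes genes comparable, the mean level over the conditions and fractions was highest for Psma7 at 374 CPM per kb, Psmb4 at 299 and Psmb3 at 296, all 20S subunits. It was lowest for Psmb9 at 5.25, Psmf1 at 8.69, Psme2b at 9.66 and Psme4 at 14.3 CPM per kb. Psma7, the most abundant per length, was at the low end of the ratios of the 20S core. Of the subunits named above, Psmb6 stood at 248 and Psma6 at 249 CPM per kb.

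Proteasome transcripts were short. Their median coding length was 795 nt against 1377 nt for the 10367 genes with a mean of at least 50 counts, their median 3′ UTR 213 nt against 1049 nt and their median 5′ UTR 112 nt against 178 nt, with a GC content of 49.8% against 50.4%. Genes of short coding length had lower median ratios, so the proteasome genes were set beside genes of their own length. Between 600 and 1000 nt, the 30 proteasome genes had a median ratio of 1.02, averaged over the conditions. For all 1989 genes of that class it was 0.08. Psmc3ip and Psme3ip1 are among the 30. Between 1000 and 1500 nt the 12 proteasome genes had 1.74 against 0.26 for 2357 genes. Under 400 nt the 2 proteasome genes, Psmg3 and Psmg4, had -0.59 against -0.78 for 535 genes, so that class was low as a whole. Between 1500 and 3000 nt 4 proteasome genes had 1.24 against 0.35 for 3254 genes. From 3000 nt, Psme4 had 0.91 against 0.30 for 1403 genes. Across the 49 genes, coding length and ratio had a Spearman rho of 0.371, and across the 10367 genes 0.198, as descriptions over genes measured in the same libraries.

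**Figure D5:**
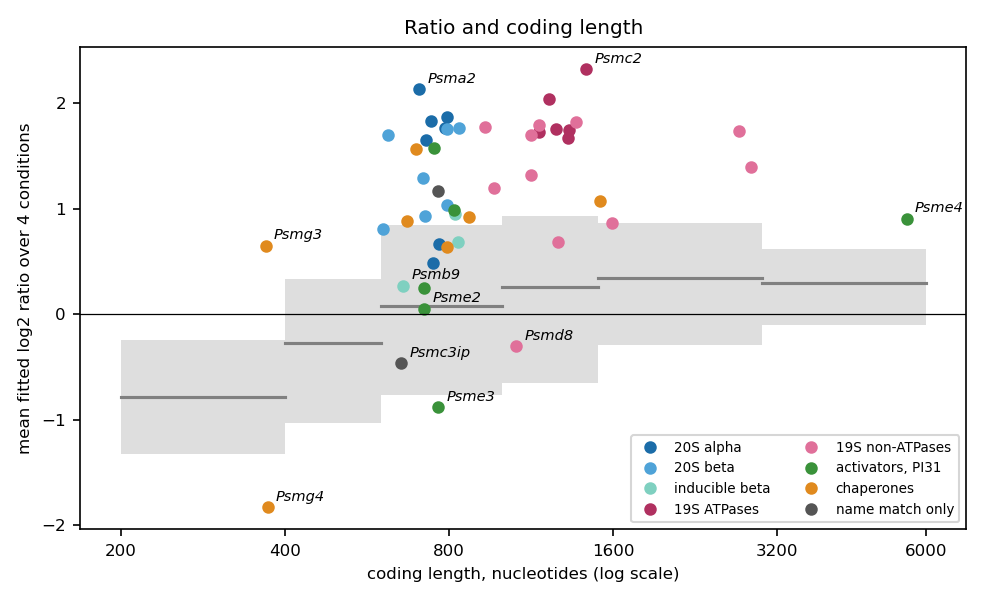
Log2 ratio averaged over the conditions (y axis) against coding length in nt (x axis, log scale) for the 49 proteasome genes, over the median and quartiles of all genes with a mean of at least 50 counts in each length class in grey. Between 600 and 1000 nt the proteasome median is 1.02 and that of all genes 0.08.

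Promoter windows of 300 bases were available from RefSeq for 42 of the 49 genes (GRCm38.p6). The letters TGANNNNGC, the core of the element bound by Nrf1 and Nrf2, occurred on either strand in 24 of 42 (57.1%), against 45.0% of 27025 genes, and CCAAT, the box bound by NF-Y, in 15 of 42 (35.7%) against 41.1%. The motifs can overlap by chance and a match is not a binding site.

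Other genes of the pathway lay on both sides. The shares to read their counts against are those of all genes with a mean of at least 50 counts, of which 32.3%, 36.6%, 35.6% and 33.6% were called higher and 27.1%, 28.3%, 28.2% and 29.8% lower. Of 9 subunits and partners whose symbols lack the prefix, 3, 4, 5 and 4 were called higher and 1 was called lower in each condition. The 1 that was lower was Sem1, a small 19S subunit, at -1.40, -1.18, -1.25 and -1.18. Usp14, a deubiquitinase that sits on the 19S cap, had 1.34, 1.47, 1.42 and 1.17 and was called higher throughout. Adrm1, a ubiquitin receptor, had -0.06, 0.14, 0.12 and 0.41 with no call, although its value in ASP shDHPS passed with TMM within each fraction (0.54, adjusted p = 0.0160, edgeR). Pomp, the chaperone of beta ring assembly, had 0.37, 0.52, 0.50 and 0.73, of which the last was called. Its calls depended on the setting. The one in ASP shDHPS did not pass without replicate 2, 3 or 4 of that condition, while Pomp passed in NoASP shSCR and ASP shGRIN2D with TMM within each fraction (0.65 and 0.63) or with either condition fitted alone (0.47 and 0.50), and in ASP shSCR without replicate 1 (0.66).

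Of 14 genes for ubiquitin, its activation and the delivery of substrates, 7, 7, 7 and 6 were called higher and 5, 4, 4 and 4 lower. Ubb, a polyubiquitin gene, had 1.81, 1.93, 2.04 and 2.12, Vcp, the segregase that extracts ubiquitinated proteins, 1.58, 1.80, 1.70 and 1.80, and its cofactor Ufd1 1.40, 1.63, 1.62 and 1.58. Of 7 regulators of proteasome genes 3 were called higher in each condition and 0, 1, 0 and 2 lower, among the former Nfe2l2, the transcription factor Nrf2, at 1.25, 1.45, 1.31 and 1.03. Its relative Nfe2l1, which drives proteasome genes when the proteasome is impaired, had 0.02, 0.25, 0.10 and 0.18 with no call. The protease Ddi2, which cuts the Nfe2l1 product, was called lower in ASP shDHPS (-0.60), and Ngly1, which removes its glycans, in NoASP shSCR (-0.62) and ASP shDHPS (-0.89), the former not past the test without NoASP shSCR replicate 1, 2 or 4.

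Of 10 genes of class I antigen processing, the route fed by the inducible subunits, 6, 8, 8 and 8 were called higher in polysomes and none lower, although Nlrc5, the activator of class I transcription, had -0.46 in ASP shDHPS (adjusted p = 0.105, edgeR) and was called lower there where every library had to hold 10 counts (-0.53, adjusted p = 0.0411) and without ASP shDHPS replicate 1 (-0.71, adjusted p = 0.0214). The examples given here, like Usp14, Nfe2l2 and Ddi2 above, were picked after their values had been seen. H2-K1, a class I heavy chain, had 0.90, 1.27, 1.44 and 1.50, and Tapbp, which loads peptides, 0.88, 1.32, 1.21 and 1.48. Tap2, a subunit of the peptide transporter, had 0.80, 1.26, 1.30 and 1.40 and Erap1, which trims peptides, 1.00, 1.29, 1.34 and 0.96. B2m, the light chain, had -0.07, 0.21, 0.21 and 0.45 with no call. Nlrc5 was the single gene of this list with a called level difference, at 0.80 in the sub-polysomal fraction of ASP shDHPS (adjusted p = 0.034, edgeR), where 0.439% of all genes were called higher. That call did not pass in 7 of the 8 fits that left out 1 pellet.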

How the data were processed

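Polysomal and sub-polysomal mRNA of 16 pellets of 4T1 spheroids was sequenced from a stranded mRNA kit. The deposited values were estimated counts per gene: per the labels and methods, the authors trimmed reads with Trim Galore 0.6.6, checked them with FastQC 0.11.9, aligned them with STAR 2.6.1, quantified them with Salmon 1.4.0 on GRCm39, and filtered and rounded the table. The strand setting of the quantification is not given in the sources used here. The deposited tables of the study's own comparisons hold log2 differences, p-values, enrichment scores and translation regulation classes and were not used.

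Counts were normalised by TMM and tested with edgeR 4.0.16 (limma 3.58.1, R 4.3.3), by the quasi-likelihood F-test over all 17757 genes, with a term for each pellet and a polysomal term for each condition. Fractions are paired through the pellet, as the study's methods give them as matched. This gave the ratio in each of 4 conditions and, against ASP shSCR, the difference in ratio. Levels against ASP shSCR were fitted separately in the libraries of each fraction, with TMM within the fraction and a term for condition alone. P-values were adjusted by the Benjamini-Hochberg method over all genes, with a threshold of 0.05 for a call, and standard errors come from the fit. Ratios per pellet were differences of log2 CPM with a prior count of 2. The fits were tested on simulated data with known changes. Alternatives were DESeq2 (1.42.0) size factors, DESeq2's Wald test, TMM within each fraction, a minimum of 10 counts in every library, edgeR's filterByExpr, the compared conditions alone, other pellet or replicate terms, and leaving out each pellet. The study's authors used DESeq2 1.34.0 for their own comparisons.

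Named were, per comparison and direction, up to 5 proteasome genes past the threshold with the largest log2 value, the 3 highest and 3 lowest ratios in ASP shSCR, genes of fixed roles, the silenced genes, up to 3 other pathway genes per direction, and Adrm1, Sem1, Pomp and Nfe2l1; other names were added after their values had been seen, and some genes that the rule names are not reported here. Members, lists and rules were chosen with earlier results of these data known. Gene positions, transcript lengths (1 annotated transcript per gene) and start codons are from GENCODE M21 on GRCm38, a build other than that of the counts, and were matched by gene, not by coordinate. Among the 48 pairs of replicate libraries none agreed within sampling noise. Library totals of 12870563 to 25639437 counts, and 50 counts or more for every proteasome gene in every library, leave the spread between pellets rather than counting as the main error.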

Additional observations from a re-analysis of the deposited data

Results flagged for a closer look

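Single pellets lay far from the other 3 of their condition for 5 genes. Psma2 had a log2 ratio of 1.29 in ASP shSCR replicate 1, where the others had 1.99 to 2.12, and Psmd13 had 0.85 in the same pellet against 1.53 to 1.64. Psma6 had 1.66 in NoASP shSCR replicate 3 against 1.91 to 1.94, and Psmc3ip, which shares only the prefix, -0.60 in NoASP shSCR replicate 2 against -0.49 to -0.48. Psmd12 had 1.30 in ASP shDHPS replicate 3 against 1.92 to 2.01. The summed level of the 49 genes was 3415 CPM in the sub-polysomal library of ASP shGRIN2D replicate 3, where the others had 4287 to 4460 CPM. Chance places about 1 in 20 groups past the limit used, which is 5.8 of the 116 groups tested, and 6 were found. Of the 6, both values of ASP shSCR replicate 1 are ratios of the pellet whose polysomal library was described above as standing apart.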

How the results depend on the processing

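The median ratio of the 49 genes stayed positive in every condition under every alternative run. Leaving out 1 pellet at a time gave 34 to 42 called genes and medians of 0.96 to 1.23 for the ratio in ASP shSCR, 40 to 43 and 1.08 to 1.24 in NoASP shSCR, 38 to 44 and 1.18 to 1.31 in ASP shGRIN2D, and 42 to 44 and 1.27 to 1.38 in ASP shDHPS. For differences in ratio these medians ran from -0.01 to 0.31, 0.12 to 0.43 and 0.10 to 0.39, from -0.12 to 0.14 for sub-polysomal and from 0.07 to 0.32 for polysomal levels, with no gene called. TMM within each fraction gave medians of 1.27, 1.33, 1.39 and 1.45, while the median of all genes moved by 0.17, 0.12, 0.10 and 0.11 and the cause of these moves was not tested. DESeq2's Wald test called 3 genes in the difference of ASP shDHPS, where edgeR called none, and the cause was not tested. Over all 49 genes, comparisons and alternatives there were 8820 values, of which 58 lost a call, 27 gained one and 430 turned sign, 22 of these among the ratios, 142 among the differences in ratio and 266 among the levels, none of the 430 with a call in either fit. The values of single genes followed one by one were 161 of 40 genes, 27 of them proteasome genes, and 148 of them ratios. Of their alternatives 1879 kept their side of the threshold and their direction, 43 lost a call, 22 gained one and 30 turned sign.

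Those 30 were ratios without a call in the fit of all pellets or in the alternative. Psmb9 had -0.025 and -0.030 in ASP shSCR and -0.041 and -0.047 in NoASP shSCR under DESeq2's size factors and its Wald test. In ASP shSCR, Nfe2l1 had -0.057 under both, and -0.010 where every library had to hold 10 counts, a filter under which Psme2 had -0.0026 in ASP shGRIN2D. Under TMM within each fraction, Psme2 had 0.15 in ASP shSCR and 0.067 in NoASP shSCR, Ngly1 0.023 and Adrm1 0.13 in ASP shSCR, and Nlrc5 0.019 in NoASP shSCR. Leaving out 1 pellet at a time, the ratio in ASP shSCR ran from -0.42 to 0.18 for Psme2, -0.38 to 0.48 for Psmb9, -0.048 to 0.66 for Pomp and -0.13 to 0.17 for Nfe2l1. In NoASP shSCR it ran from -0.071 to 0.29 for Psmb9 and -0.20 to 0.077 for Psme2, and in ASP shGRIN2D from -0.061 to 0.19 for Nfe2l1, -0.13 to 0.37 for Psmb9, -0.075 to 0.32 for Psme2 and -0.0089 to 0.21 for Adrm1.

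The replicate numbers were checked as a block across conditions. Deviations of pellets with the same number had a median correlation of 0.166 over 24 pairs, 14 of them over 0.1, against -0.05 over 72 pairs with different numbers, 18 of them over 0.1. For levels the median over same-numbered pairs was 0.358 in the polysomal and 0.249 in the sub-polysomal fraction, with 16 and 18 of 24 over 0.1. Same-numbered pellets thus deviated together in part, but not every pair passed 0.1 and no label ties them, so the numbers were not taken as pairs. With that block 40, 45, 44 and 46 genes were called for the ratio and none for differences or levels. The proteasome genes that gained a call were Psma3, Psmb2 and Psmb8 in ASP shSCR and Psmd8 in NoASP shSCR, and none lost one. Among the genes followed outside the 49, Pomp in NoASP shSCR and ASP shGRIN2D and Adrm1 in ASP shDHPS gained a call, and among all genes the ASP shDHPS difference had 15 higher and 216 lower calls in place of 0 and 37. Without the pellet pairing 38, 43, 44 and 45 were called, and Psme2 had 0.037 in ASP shSCR.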

Other observations

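The 4 keratin genes among the 6 epithelial markers were lower in the sub-polysomal fraction of ASP shDHPS, and Krt7 was lower in that of ASP shGRIN2D. In ASP shDHPS the log2 difference against ASP shSCR was -1.03 for Krt7 (adjusted p = 0.00157, edgeR), -1.04 for Krt19 (adjusted p = 0.00221), -0.995 for Krt18 (adjusted p = 0.0320) and -0.74 for Krt8 (adjusted p = 0.0490), where 0.974% of all genes were called lower. The other markers of the list, Epcam at -0.54 (adjusted p = 0.138) and Cdh1 at 0.29 (adjusted p = 0.455), did not pass the test and differed in sign. In ASP shGRIN2D it was -1.14 for Krt7 (adjusted p = 0.000904), while Krt18 had -1.01 (adjusted p = 0.0620), Krt8 -0.83 (adjusted p = 0.0562), Krt19 -0.64 (adjusted p = 0.141), Epcam -0.47 (adjusted p = 0.326) and Cdh1 0.13 (adjusted p = 0.832), none of them past the test, where 0.208% of all genes were called lower. In the polysomal fraction no marker of the list was called in either comparison. The 2 comparisons share the ASP shSCR libraries. Thy1, whose source is uncertain as said above, and the fibroblast-associated Pdgfra had differences of -0.16 and 0.34 in ASP shDHPS, neither past the test.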
